A study of Homo sapiens with 30 samples.

Results

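The peroxisome proliferator-activated receptors (PPARs), some of their target genes and enzymes of fatty acid oxidation were followed by messenger RNA sequencing in HT29, an established human colorectal adenocarcinoma cell line. The group comprised 8 genes chosen by name from the 60675 in the deposited table, matched by Ensembl ID: the receptor genes PPARA, PPARD and PPARG, and PDK4, CPT1A, ACADVL, PLIN2 and ANGPTL4. All 8 passed the filter on low counts and were among the 18783 genes tested, ANGPTL4 barely so, with 1 to 13 counts in a library. Cells were exposed for 24 h to a 70% ethanol extract of the Korean herbal formula Banhasasim-tang (n = 2 at each dose, replicates 2 and 3), Sayeok-tang (n = 3 at each dose), Bojungikgi-tang (n = 3 at each dose) or Yijung-tang (n = 1 at each dose, replicate 3), each at 20, 100 and 500 µg/mL, or to vehicle (n = 3, 0.1% DMSO per the sample labels and 2% per the series text). These 13 groups made up 30 libraries, all of this line and all titled as batch E. The series records transcriptomes induced by herbal medicines for digestion.

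Fatty acids and their derivatives bind PPARs, which pair with retinoid X receptors on DNA and switch on genes for the uptake, storage and breakdown of fat. PPARA is best known for fatty acid oxidation in liver, PPARD acts in many tissues including the gut lining, and PPARG is abundant in colon epithelium as well as in fat cells. CPT1A admits long-chain fatty acids to the mitochondrion, ACADVL starts their oxidation there, PDK4 turns pyruvate dehydrogenase off so that fat rather than glucose is burned, PLIN2 coats lipid droplets, and ANGPTL4 is a secreted inhibitor of lipoprotein lipase.

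Expected counts per library summed to between 36274000 and 71626000 with a median of 50054000. Levels are given as CPM, counts per 1000000 with library sizes scaled by the TMM method, and 3 counts corresponded to between 0.0419 and 0.0827 CPM before that scaling. Such floors cover only the error of counting. The labels do not say whether replicates came from separate cultures, so each p-value reflects the spread of these libraries, technical or not. On the first principal component (12.19% of the variance) vehicle replicate 1 lay at -57.26 and the other vehicle libraries at -18.45 and -11.21. Mitochondrial ribosomal RNAs took 12.9% and 9.41% of counts in the Banhasasim 500 µg/mL libraries, against between 0.914% and 1.91% in the other 28. Sample codes fall in a series 14 (Banhasasim and Yijung), a series 15 (Sayeok and Bojungikgi) and a code of its own for the vehicle, so code series and treatment cannot be told apart in comparisons with the vehicle or between Banhasasim and the extracts of series 15. All 10 markers of a colorectal epithelial line passed the filter on low counts. CDX1 was low at 33 to 85 counts, CDX2 held 171 to 445 and CEACAM5 185 to 451, while the others held at least 5463. Of the markers of other cell types, 2 of 6 for fat cells passed the filter on low counts (PLIN1 with 10 to 44 and CIDEC with 22 to 56 counts), while ADIPOQ, LEP, FABP4 and LPL reached at most 2 counts. For liver 2 of 6 passed, with ALB and APOB at most at 1 count and SERPINA1 abundant. For leukocytes 4 of 6 passed, with PTPRC and CD3E at most at 4 counts, CD14 at 107 to 269, ITGAM at 58 to 133 and LYZ abundant. For fibroblasts and endothelium 3 of 7 passed, namely PECAM1 (52 to 123 counts), COL1A1 (43 to 113) and LUM (19 to 61), while COL3A1, DCN, VWF and CDH5 reached at most 6.

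Promoters of the genes whose level changed with dose, and of PPARG, are shown because PPARs act through repeats of the hexamer AGGTCA. Each is the RefSeq sequence (GRCh38.p14) that runs over 250 bases before and 50 after 1 annotated start, written 5′ to 3′ along the gene. They lie at chr7:95596467-95596766 (minus strand) for PDK4, chr11:68844228-68844527 (minus strand) for CPT1A, chr17:7216875-7217174 (plus strand) for ACADVL, chr9:19127443-19127742 (minus strand) for PLIN2 and chr3:12287118-12287417 (plus strand) for PPARG. Capitals mark the matches to AGGTCA in PPARG and to CACGTG in PLIN2.
PDK4 promoter: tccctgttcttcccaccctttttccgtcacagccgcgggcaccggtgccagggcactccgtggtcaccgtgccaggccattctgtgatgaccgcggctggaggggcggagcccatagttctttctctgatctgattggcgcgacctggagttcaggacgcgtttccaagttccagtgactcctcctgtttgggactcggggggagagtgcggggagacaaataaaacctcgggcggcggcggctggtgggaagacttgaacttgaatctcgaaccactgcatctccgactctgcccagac
CPT1A promoter: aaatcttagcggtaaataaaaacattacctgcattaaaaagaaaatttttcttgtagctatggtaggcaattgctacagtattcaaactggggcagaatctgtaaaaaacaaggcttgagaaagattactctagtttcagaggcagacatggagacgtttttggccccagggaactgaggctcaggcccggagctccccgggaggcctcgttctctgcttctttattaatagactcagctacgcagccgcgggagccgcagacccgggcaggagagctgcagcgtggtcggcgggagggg
ACADVL promoter: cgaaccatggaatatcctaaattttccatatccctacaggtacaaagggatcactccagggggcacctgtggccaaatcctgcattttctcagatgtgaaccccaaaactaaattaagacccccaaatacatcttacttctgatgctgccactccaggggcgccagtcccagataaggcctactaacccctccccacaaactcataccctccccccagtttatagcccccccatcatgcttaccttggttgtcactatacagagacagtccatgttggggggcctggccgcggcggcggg
PLIN2 promoter: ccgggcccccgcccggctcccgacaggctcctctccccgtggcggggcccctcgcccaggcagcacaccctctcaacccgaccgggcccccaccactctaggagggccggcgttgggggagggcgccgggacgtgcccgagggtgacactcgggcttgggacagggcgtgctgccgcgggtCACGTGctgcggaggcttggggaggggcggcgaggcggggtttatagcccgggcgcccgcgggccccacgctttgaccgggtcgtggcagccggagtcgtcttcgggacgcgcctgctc
PPARG promoter: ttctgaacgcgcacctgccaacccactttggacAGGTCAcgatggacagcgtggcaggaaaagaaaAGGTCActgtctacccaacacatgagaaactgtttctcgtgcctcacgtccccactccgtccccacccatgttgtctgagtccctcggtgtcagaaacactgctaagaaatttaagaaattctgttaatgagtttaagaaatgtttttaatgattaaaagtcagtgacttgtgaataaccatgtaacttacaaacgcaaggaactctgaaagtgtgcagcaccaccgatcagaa

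The 8 promoters were searched on both strands. The full response element AGGTCANAGGTCA was in none of them and in 0.0228% of all 35116 promoters of this length, and AGGNCANAGGNCA, which leaves 1 base of each hexamer free, was in none of them and in 0.31% of all. The hexamer AGGTCA, which lies within the full element, occurred in PPARG alone among the 8, at -217 and -184 from the start, and in 13.8% of all promoters. CACGTG occurred in PLIN2 alone, at -69, and in 7.26% of all, while the forkhead sequence TGTTTAC was in none of the 8 and in 3.42% of all. None of the motifs overlapped another in these windows. A match of letters is a description of the window and does not show a bound site. The lack of a match says nothing of sequence outside the window. Which start these cells use was not examined, and the PLIN2 window lies inside the annotated span of its gene.

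Levels of the 8 genes differed widely when set on a scale per length (CPM per kilobase of union exon length, median over the 30 libraries). ACADVL was highest at 32.1, followed by PPARG at 20.5 and CPT1A at 18.1. PPARD stood at 6.42 and PPARA at 4.53, so PPARG was the most abundant of the 3 PPAR mRNAs. PDK4 and PLIN2 were lower, at 1.81 and 1.70, and ANGPTL4 was lowest at 0.0422. Across the 30 libraries the highest library exceeded the lowest by 1.28 times for PPARG, 1.29 for ACADVL, 1.32 for PPARD, 1.34 for CPT1A, 1.55 for PPARA, 1.56 for PLIN2 and 1.91 for PDK4, and by 15.6 for ANGPTL4, whose counts were few. In these bulk libraries fewer cells and less RNA per cell cannot be told apart.

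**Figure D1:**
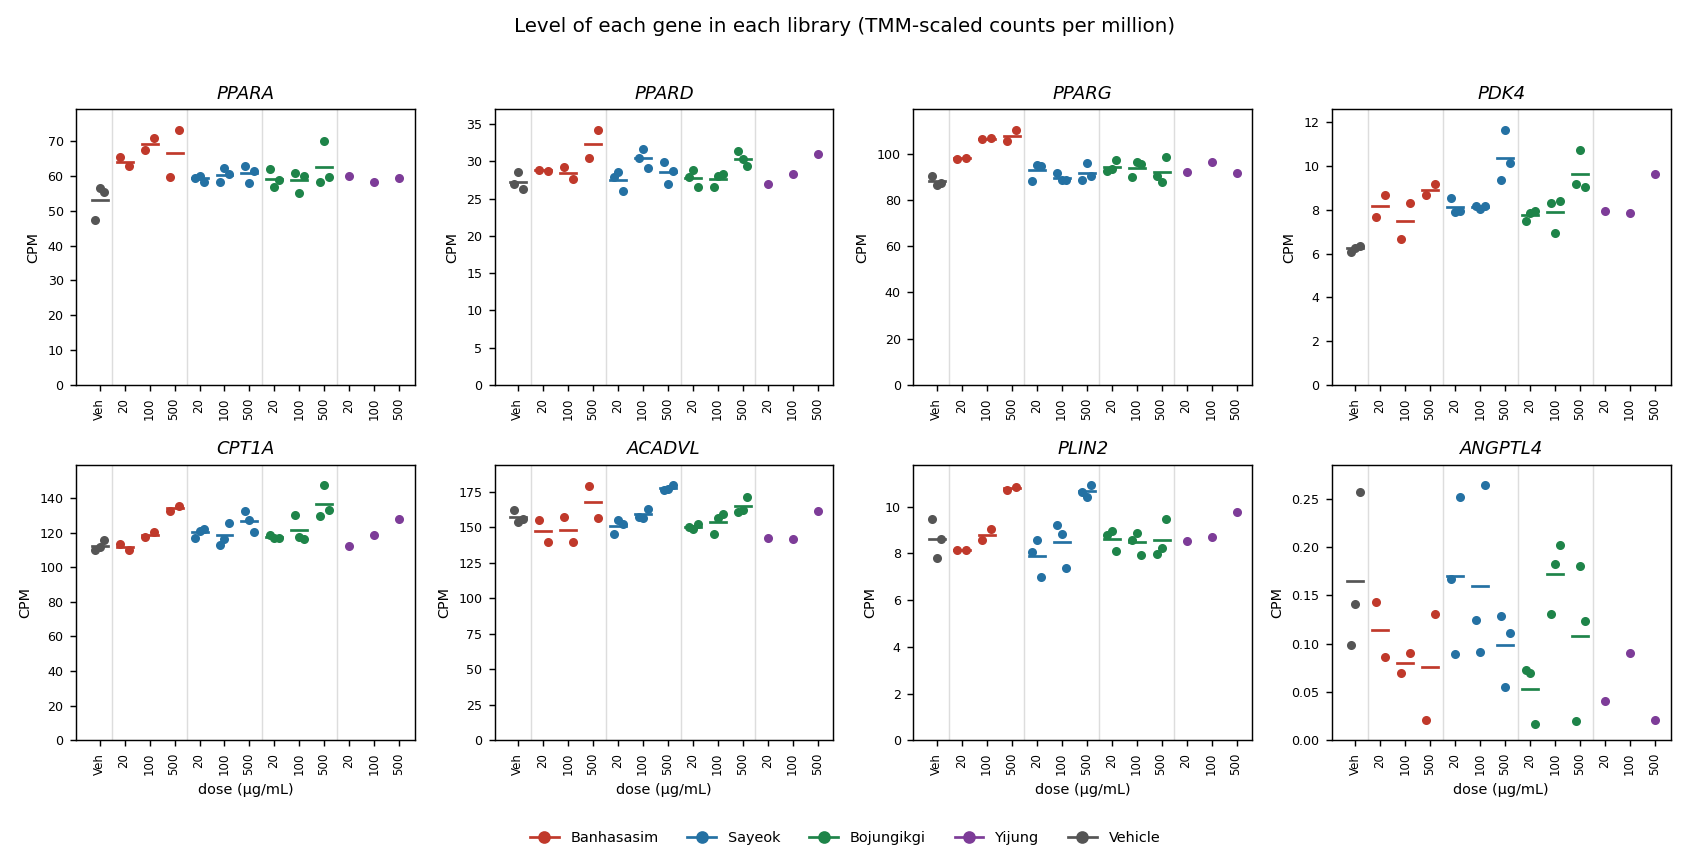
Level of each of the 8 genes in each library (TMM-scaled CPM, linear axis starting at 0), with points for single libraries, horizontal lines for group means, and doses in µg/mL from low to high for each extract after the vehicle. PDK4 in all 27 treated libraries (6.66 to 11.7 CPM) lies above the 3 vehicle libraries (6.09 to 6.36 CPM), and PLIN2 is high at 500 µg/mL of Banhasasim and Sayeok.

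The first question was which of these genes changed between 500 and 20 µg/mL of the same extract, a comparison whose fold changes do not use the vehicle. Of the 8 genes, 2 rose for Banhasasim, 3 for Sayeok and 1 for Bojungikgi, and 0 fell (quasi-likelihood test of edgeR, p adjusted over all genes by Benjamini-Hochberg and under 0.05). Among all genes tested the share called was 7.82% for Banhasasim (3.82% higher, 4% lower), 3.17% for Sayeok (1.14% higher, 2.03% lower) and 1.76% for Bojungikgi (0.602% higher, 1.16% lower). The median log2 fold change of the 8 was 0.15 for Banhasasim, 0.06 for Sayeok and 0.13 for Bojungikgi, against 0.00 over all genes each time. The changes were small: the largest called, of PLIN2 with Sayeok, was 1.34-fold.

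PLIN2, which coats lipid droplets and shields their fat from lipases (ENSG00000147872, chromosome 9, 19108375 to 19149290, minus strand, GRCh38), rose with 2 of the extracts. It measured 10.7 and 10.8 CPM at 500 µg/mL of Banhasasim, against 8.16 and 8.15 CPM at 20 µg/mL. For Sayeok it measured 10.6, 10.4 and 10.9 CPM at 500 µg/mL, against 8.07, 8.57 and 7.01 CPM at 20 µg/mL. In both extracts every 500 µg/mL library lay above every 20 µg/mL library. The log2 fold change was 0.40 ± 0.11 (SE, edgeR adjusted p = 0.018) for Banhasasim and 0.43 ± 0.09 (edgeR adjusted p = 0.00448) for Sayeok. For Bojungikgi it measured 7.98, 8.24 and 9.46 CPM at 500 µg/mL, against 8.79, 8.94 and 8.10 CPM at 20 µg/mL, and these groups overlapped. The Sayeok call held without any single library (edgeR adjusted p at most 0.0419). The Banhasasim call was lost without replicate 2 or replicate 3 at 500 µg/mL (edgeR adjusted p = 0.101 and 0.0673) and without replicate 2 or replicate 3 at 20 µg/mL (0.102 and 0.123), each of which leaves a dose with 1 library that is assumed to vary like the other groups.

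At 100 µg/mL PLIN2 measured 8.55 and 9.04 CPM with Banhasasim, 9.21, 8.84 and 7.36 CPM with Sayeok and 8.59, 8.88 and 7.94 CPM with Bojungikgi. Vehicle libraries had 9.49, 7.78 and 8.63 CPM, so every library at 100 µg/mL lay within the vehicle range except Sayeok replicate 3, which lay under it. In the order of group means over the 10 groups with replicates, 8 of 9 neighbouring pairs overlapped, and the exception was the step up to Sayeok at 500 µg/mL, below Banhasasim at 500 µg/mL.

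CPT1A, the outer membrane carnitine palmitoyltransferase that sets the rate of long-chain fatty acid entry (ENSG00000110090, chromosome 11, 68754620 to 68844410, minus strand), rose with Banhasasim and Bojungikgi. It measured 132 and 135 CPM at 500 µg/mL of Banhasasim, against 113 and 110.2 CPM at 20 µg/mL, without overlap. For Bojungikgi it measured 129.7, 147 and 133 CPM at 500 µg/mL, against 119, 117 and 117 CPM at 20 µg/mL, again without overlap. The log2 fold change was 0.26 ± 0.06 (edgeR adjusted p = 0.00809) for Banhasasim and 0.22 ± 0.05 (edgeR adjusted p = 0.0208) for Bojungikgi. With Sayeok the values were 132, 127 and 120.1 CPM at 500 µg/mL, against 117, 121 and 122 CPM at 20 µg/mL, and the groups overlapped. The Banhasasim call was lost without replicate 3 at 500 or at 20 µg/mL (edgeR adjusted p = 0.0548 and 0.102). The Bojungikgi call was lost without replicate 2 at 500 µg/mL (0.156), without replicate 1, 2 or 3 at 20 µg/mL (0.057, 0.116 and 0.114) and with only these 2 groups in the fit (0.196).

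ACADVL, the first dehydrogenase of long-chain oxidation in mitochondria (ENSG00000072778, chromosome 17, 7217125 to 7225273, plus strand), was called for Sayeok. It measured 176, 177 and 179.6 CPM at 500 µg/mL of Sayeok, against 145, 155 and 152 CPM at 20 µg/mL, and every library at the high dose exceeded every library at the low one. The log2 fold change was 0.24 ± 0.05 (edgeR adjusted p = 0.00918), and the call was lost without replicate 3 at 500 µg/mL (0.0528) or replicate 1 at 20 µg/mL (0.0786). With Banhasasim ACADVL measured 179 and 156 CPM at 500 µg/mL, against 155 and 139.8 CPM at 20 µg/mL. That difference of 0.19 ± 0.06 did not pass (edgeR adjusted p = 0.0802), but did so without replicate 3 at 500 µg/mL (0.0187). With Bojungikgi all 3 libraries at 500 µg/mL (161 to 171 CPM) lay above the 3 at 20 µg/mL (149 to 152 CPM), but the difference of 0.13 ± 0.05 did not pass (edgeR adjusted p = 0.255). DLG4 overlaps this gene on the opposite strand, and since the strand setting of the counting is not given in the sources used here, its reads cannot be told apart. DLG4 itself held at most 36 counts in a library.

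PDK4, the pyruvate dehydrogenase kinase that fasting and PPARs induce (ENSG00000004799, chromosome 7, 95583499 to 95596491, minus strand), rose with the Sayeok dose. It measured 9.38, 11.7 and 10.1 CPM at 500 µg/mL of Sayeok, against 8.53, 7.90 and 7.94 CPM at 20 µg/mL, without overlap. The log2 fold change was 0.36 ± 0.09 (edgeR adjusted p = 0.0255). The call was lost without replicate 2 or 3 at 500 µg/mL (0.218 and 0.0551) and without replicate 2 or 3 at 20 µg/mL (0.109 and 0.088). For Bojungikgi PDK4 measured 9.17, 10.7 and 9.07 CPM at 500 µg/mL, against 7.49, 7.85 and 7.93 CPM at 20 µg/mL, which also did not overlap. The difference of 0.31 ± 0.09 did not pass (edgeR adjusted p = 0.0771). For Banhasasim it measured 8.66 and 9.19 CPM at 500 µg/mL, against 7.66 and 8.70 CPM at 20 µg/mL, and these overlapped.

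None of the 3 receptor genes was called between 500 and 20 µg/mL with any extract. PPARG (ENSG00000132170, chromosome 3, 12287368 to 12434356, plus strand) measured 105 and 110.3 CPM at 500 µg/mL of Banhasasim, against 97.8 and 98.1 CPM at 20 µg/mL, a difference of 0.14 ± 0.06 (edgeR adjusted p = 0.142). PPARD (ENSG00000112033, chromosome 6, 35342558 to 35428191, plus strand) differed by 0.17 ± 0.07 (edgeR adjusted p = 0.147) in the same comparison and by 0.13 ± 0.06 (edgeR adjusted p = 0.288) with Bojungikgi. PPARA (ENSG00000186951, chromosome 22, 46150521 to 46243756, plus strand) overlapped between these doses in each extract. With Sayeok it measured 57.9 to 62.8 CPM at 500 µg/mL, against 58.4 to 59.9 CPM at 20 µg/mL. The sense intronic gene ENSG00000280384 within PPARA reached at most 73 counts.

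Between 100 and 20 µg/mL, edgeR called 0 of the 8 genes for Banhasasim, Sayeok and Bojungikgi, and the share of all genes called was 0.0852% (0.0799% higher, 0.00532% lower), 0% and 0.0106% (all of it lower). DESeq2 also called 0 of the 8 in each. At an unadjusted p under 0.05 there was 1 in each extract: PPARG for Banhasasim, PPARD for Sayeok and ANGPTL4 for Bojungikgi. Of all 18783 genes tested, 516, 885 and 435 were under that threshold in the same order of extracts. The receptor genes had adjusted p-values of 1 and 0.992 there by edgeR.

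**Figure D2:**
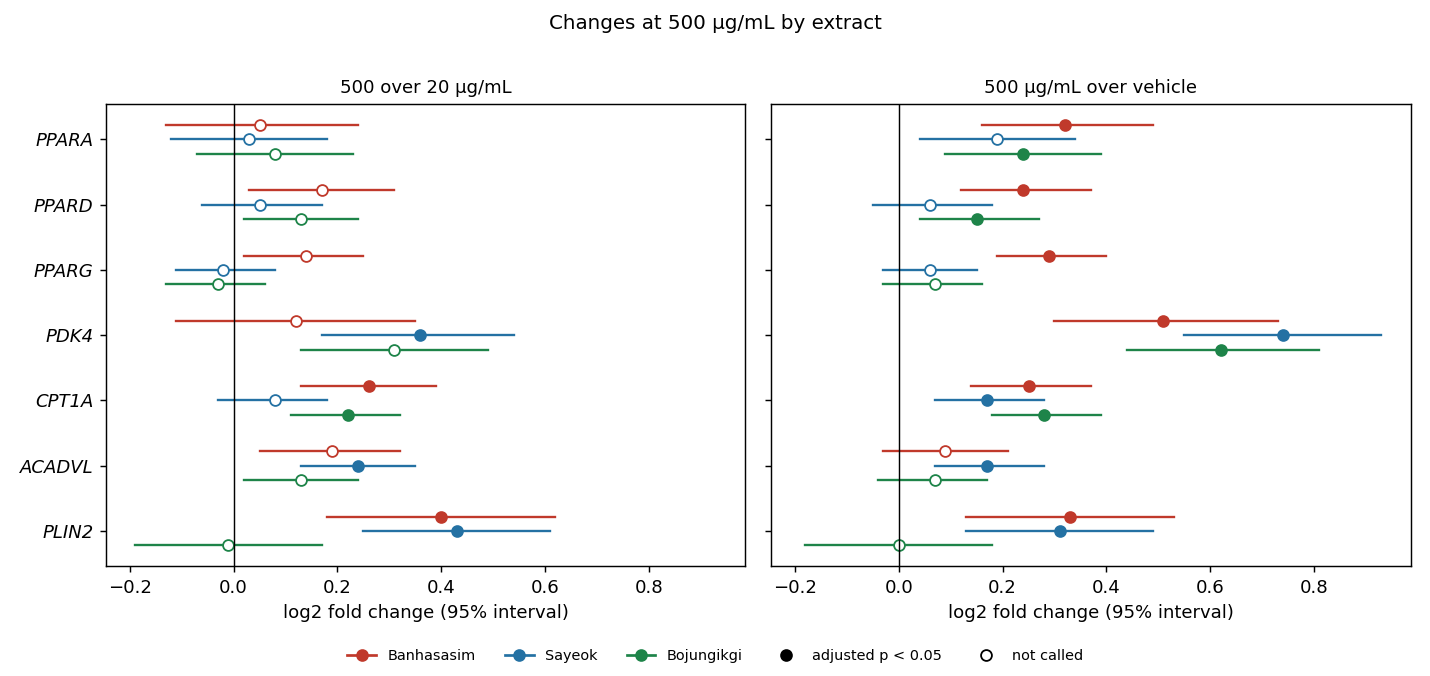
Log2 fold change with its 95% interval for 7 of the genes, at 500 over 20 µg/mL on the left and at 500 µg/mL over vehicle on the right, by extract, with filled points where the edgeR adjusted p was under 0.05. PDK4 is called over the vehicle for each of the 3 extracts (0.51, 0.74 and 0.62), and PLIN2 for Banhasasim (0.33) and Sayeok (0.31); ANGPTL4 is left out because of its low counts.

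Against the vehicle, PDK4 had the largest log2 fold changes among the called genes of the group. Vehicle libraries had 6.09, 6.27 and 6.36 CPM, and all 27 treated libraries lay higher, between 6.66 and 11.7 CPM with a median of 8.33 CPM. At 500 µg/mL the log2 fold change was 0.51 ± 0.10 for Banhasasim (edgeR adjusted p = 9.68e-04), 0.74 ± 0.09 for Sayeok (8.26e-06) and 0.62 ± 0.09 for Bojungikgi (4.74e-05). These 3 calls held under every alternative tried and without any single library. At 20 µg/mL it was already 0.39 ± 0.10 for Banhasasim (edgeR adjusted p = 0.0154), 0.38 ± 0.09 for Sayeok (0.00734) and 0.31 ± 0.09 for Bojungikgi (0.0211). The Sayeok call held without any single library (edgeR adjusted p at most 0.0377). The Banhasasim call was lost without vehicle replicate 1 (0.0619), without replicate 3 at 20 µg/mL (0.23) and with only these groups in the fit (0.1). The Bojungikgi call was lost without vehicle replicate 1 (0.0914) and without replicate 2 or 3 at 20 µg/mL (0.0536 and 0.0625).

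All of the 8 genes that passed against the vehicle were higher. At 500 µg/mL they numbered 6 of 8 for Banhasasim, 4 for Sayeok and 4 for Bojungikgi, with 0 lower. Over all genes tested the share called was 15.3% (8.16% higher, 7.12% lower), 16.6% (8.33% higher, 8.27% lower) and 29.7% (14.3% higher, 15.4% lower) in the same order of extracts. The median log2 fold change of the 8 was 0.27, 0.17 and 0.11, against -0.02, -0.01 and -0.01 over all genes. At 20 µg/mL the numbers were 3, 1 and 1, all higher, where 12.7% (6.43% higher, 6.23% lower), 18.9% (8.86% higher, 10.1% lower) and 18.3% (9.11% higher, 9.2% lower) of all genes were called.

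CPT1A was also higher than in the vehicle at 500 µg/mL of all 3 extracts, where vehicle libraries measured 109.9, 112 and 116 CPM. Its log2 fold change was 0.25 ± 0.06 for Banhasasim (edgeR adjusted p = 0.00304), 0.17 ± 0.05 for Sayeok (0.0227) and 0.28 ± 0.05 for Bojungikgi (3.57e-04), and the vehicle libraries lay below every one of these 8 libraries. Each call was lost with only the compared groups in the fit (edgeR adjusted p = 0.066, 0.0717 and 0.0618). The Sayeok call was also lost without vehicle replicate 1 or 2 (0.0947 and 0.0642) and without replicate 1 or 2 at 500 µg/mL (0.103 and 0.0702). PLIN2 was higher with Banhasasim (0.33 ± 0.10, edgeR adjusted p = 0.0214) and Sayeok (0.31 ± 0.09, 0.0165). Both of these calls were lost without vehicle replicate 2 (0.116 and 0.105), the Banhasasim one also without its replicate 2 or 3 at 500 µg/mL (0.0789 and 0.123) and with only the compared groups (0.121), and the Sayeok one without its replicate 3 (0.0513). ACADVL was higher with Sayeok (0.17 ± 0.05, edgeR adjusted p = 0.0239), a call lost without vehicle replicate 2 (0.0825), without Sayeok replicate 2 or 3 (0.0615 and 0.0662) and with only the compared groups (0.0505).

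Among the receptors PPARG stood out with Banhasasim. It measured 105 and 110.3 CPM at 500 µg/mL of Banhasasim, against 90.3, 86.4 and 87.4 CPM in vehicle libraries, by 0.29 ± 0.05 (edgeR adjusted p = 1.98e-04). That call held under every alternative and without any single library (edgeR adjusted p at most 0.0131). All 6 Banhasasim libraries at the 3 doses (97.8 to 110.3 CPM) lay above the vehicle. This was not particular to Banhasasim: of all 27 treated libraries 20 lay above it, among them those of Yijung (91.7 to 96.3 CPM). At 100 µg/mL of Banhasasim PPARG measured 106.2 and 106.8 CPM. At 20 µg/mL the difference was 0.15 ± 0.05 (edgeR adjusted p = 0.0444), a call lost without any 1 of the 5 libraries compared (0.0646 to 0.226), with the replicate number as a block (0.0649), without the filter (0.114) and with only these groups (0.143). With Sayeok and Bojungikgi at 500 µg/mL PPARG measured 88.8 to 95.8 CPM and 87.9 to 98.4 CPM, which overlapped the vehicle.

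PPARA lay above all vehicle libraries in 26 of 27 treated libraries, but the vehicle was itself spread, at 47.3, 56.6 and 55.2 CPM. It measured 59.8 and 73.2 CPM at 500 µg/mL of Banhasasim (0.32 ± 0.08, edgeR adjusted p = 0.00675), a call lost without the higher of these libraries, replicate 3 (0.307). For Bojungikgi it measured 58.3, 70.0 and 59.6 CPM (0.24 ± 0.07, edgeR adjusted p = 0.0159), a call lost without replicate 2 (0.135) or vehicle replicate 1 (0.144), and both were lost with only the compared groups (0.162 and 0.129). With Sayeok the difference of 0.19 ± 0.07 did not pass (edgeR adjusted p = 0.071), but did so by DESeq2 (0.0465) and without the filter (0.0177). At 20 µg/mL of Banhasasim it was 0.27 ± 0.08 (edgeR adjusted p = 0.0289), and this call was lost without vehicle replicate 1 (0.166), without either Banhasasim library (0.183 and 0.128) and with only these groups (0.126). PPARD, the gut-expressed receptor, was higher at 500 µg/mL of Banhasasim (0.24 ± 0.06, edgeR adjusted p = 0.00763) and Bojungikgi (0.15 ± 0.06, 0.0368). The Banhasasim call was lost without replicate 3 (0.24) and with only the compared groups (0.136). The Bojungikgi call was lost without vehicle replicate 1 or 3 (0.127 and 0.117), without replicate 1 or 2 (0.121 and 0.0724), without the filter (0.126) and with only the compared groups (0.135).

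ANGPTL4, a target that PPARs induce strongly in many cells, was at the limit of detection. It had 1 and 6 counts at 500 µg/mL of Banhasasim, 6, 3 and 4 at 500 µg/mL of Sayeok and 1, 8 and 7 at 500 µg/mL of Bojungikgi, against 4, 10 and 13 counts in vehicle libraries. It was not called in any of the 15 comparisons by edgeR. With Bojungikgi it had 3, 5 and 1 counts at 20 µg/mL, 6, 10 and 11 at 100 µg/mL and 1, 8 and 7 at 500 µg/mL. The 95% interval of its log2 fold change left out 0 at 20 µg/mL of Bojungikgi against the vehicle (-2.95 to -0.30, edgeR adjusted p = 0.0772) and at 100 against 20 µg/mL (0.36 to 3.00, edgeR adjusted p = 1), neither of which passed. Counts this low make each of these values imprecise. The filter (minimum count 10) had to be met in only 1 library, so ANGPTL4 was tested because of its highest libraries. The vehicle (at most 13 counts, 0.257 CPM) and Bojungikgi at 100 µg/mL (at most 11 counts, 0.202 CPM) were among its highest groups. Bojungikgi at 20 µg/mL was not (at most 5 counts, 0.0725 CPM). The intervals rest in part on this selection, so no difference is concluded from them. The ANGPTL4 gene (ENSG00000167772, chromosome 19, 8363289 to 8374373, plus strand) shares 1 base with RAB11B-AS1 on the opposite strand, which held up to 184 counts.

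The single Yijung libraries were compared with no test. All 24 values, of 8 genes at 3 doses, lay within the range of the other extracts at the same dose, and 18 lay outside the range of the vehicle. The share of all genes outside the vehicle range was not computed, so the 18 are not read as a response of these genes. Each ANGPTL4 value was among the 18, at 2, 4 and 1 counts with 20, 100 and 500 µg/mL. With Yijung at 20, 100 and 500 µg/mL PDK4 measured 7.97, 7.84 and 9.64 CPM, against a vehicle mean of 6.24 CPM, as log2 ratios of 0.35, 0.33 and 0.62. CPT1A measured 112, 119 and 128 CPM at the same doses and PLIN2 measured 8.55, 8.68 and 9.78 CPM.

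Differences between extracts in the change between 500 and 20 µg/mL were tested by interaction terms. EdgeR called 0 of the 8 genes in each of the 3 comparisons, where 1.04% (0.745% higher and 0.298% lower, Banhasasim minus Sayeok), 2.06% (1.31% higher and 0.745% lower, Banhasasim minus Bojungikgi) and 0.0266% (0.0213% higher and 0.00532% lower, Sayeok minus Bojungikgi) of all genes were called, and DESeq2 called 0 as well. At an unadjusted p under 0.05 were CPT1A and PPARG in the first, PPARG and PLIN2 in the second and PLIN2 in the third. Of all 18783 genes tested, 1769, 2881 and 867 were under that threshold in the same order. PLIN2 was 0.41 higher with Banhasasim than with Bojungikgi (95% interval 0.12 to 0.69, edgeR adjusted p = 0.141) and 0.43 higher with Sayeok than with Bojungikgi (0.18 to 0.69, edgeR adjusted p = 0.672). These intervals leave out 0, but the tests did not pass over all genes, so a gene called with 1 extract and not with another is not shown to differ between them. For CPT1A the difference between Banhasasim and Sayeok was 0.18 (95% interval 0.02 to 0.35, edgeR adjusted p = 0.454). For PDK4 and ACADVL all 3 intervals held 0 and were compatible with differences of up to 0.53 for PDK4 and 0.26 for ACADVL in size.

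**Figure D3:**
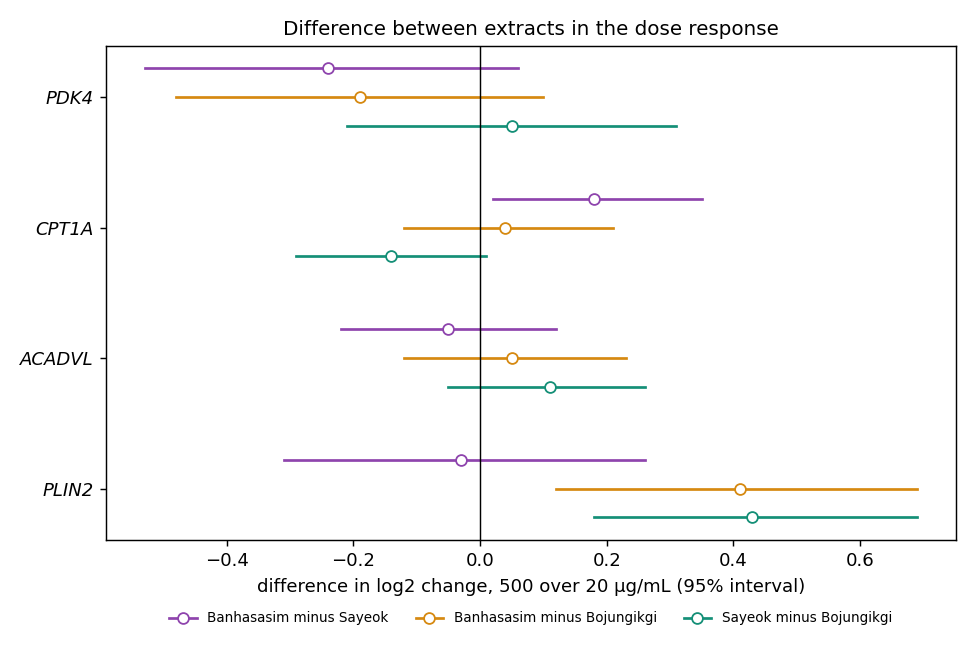
Difference between 2 extracts in the log2 change at 500 over 20 µg/mL, with its 95% interval, for the 4 genes that were called in that change with at least 1 extract; open points did not pass. Only the PLIN2 intervals against Bojungikgi (0.12 to 0.69 and 0.18 to 0.69) and the CPT1A interval of Banhasasim minus Sayeok (0.02 to 0.35) leave out 0.

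Around these 8, another 110 genes of the pathway in 9 lists were followed, of which 91 were tested. Between 500 and 20 µg/mL, 5 were higher and 5 lower for Banhasasim (11% called, against 7.82% of all genes), 1 and 5 for Sayeok (6.59%, against 3.17%) and 1 and 1 for Bojungikgi (2.2%, against 1.76%). Their median log2 fold change was 0.03, 0.00 and -0.03.

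Lipid droplet and lipolysis genes (14 tested) had 2 members higher and 0 lower with Banhasasim, with a median of 0.15. Of all genes 3.82% were called higher and 4% lower in that comparison. PLIN4, a further droplet coat protein, measured 17.1 and 16.7 CPM at 500 µg/mL, against 9.12 and 9.49 CPM at 20 µg/mL, and all other libraries of the study lay between 8.21 and 11.3 CPM. Its log2 fold change of 0.86 ± 0.10 (edgeR adjusted p = 5.64e-07) held under every alternative and without any single library. G0S2, an inhibitor of the fat cell lipase PNPLA2, measured 1.29 and 1.13 CPM at 500 µg/mL, against 0.239 and 0.549 CPM at 20 µg/mL, by 1.56 ± 0.30 (edgeR adjusted p = 0.00118). These values rest on few counts, 61 and 52 at 500 µg/mL against 10 and 32 at 20 µg/mL. The mitochondrial ribosomal RNA share was raised in these same Banhasasim libraries, and its part in the result was not tested. With Sayeok the triglyceride synthase DGAT2 fell by 0.19 (edgeR adjusted p = 0.0229), a call lost without the filter (0.239), with only these groups (0.0799) and without any of 4 single libraries, namely replicate 2 or 3 at 500 µg/mL (0.119 and 0.0722) and replicate 1 or 2 at 20 µg/mL (0.0865 and 0.0741).

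Among other PPARA targets, VNN1, a pantetheinase induced by PPARA in mouse liver, fell by 0.55 with Banhasasim (edgeR adjusted p = 8.39e-06), to 16.5 and 16.0 CPM at 500 µg/mL, against 24.0 and 23.4 CPM at 20 µg/mL. With Bojungikgi VNN1 fell by 0.23 (edgeR adjusted p = 0.0346), a call lost without replicate 1 or 2 at 500 µg/mL (0.0767 and 0.151), without replicate 2 or 3 at 20 µg/mL (0.168 and 0.153) and with only these groups (0.195).

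**Figure D4:**
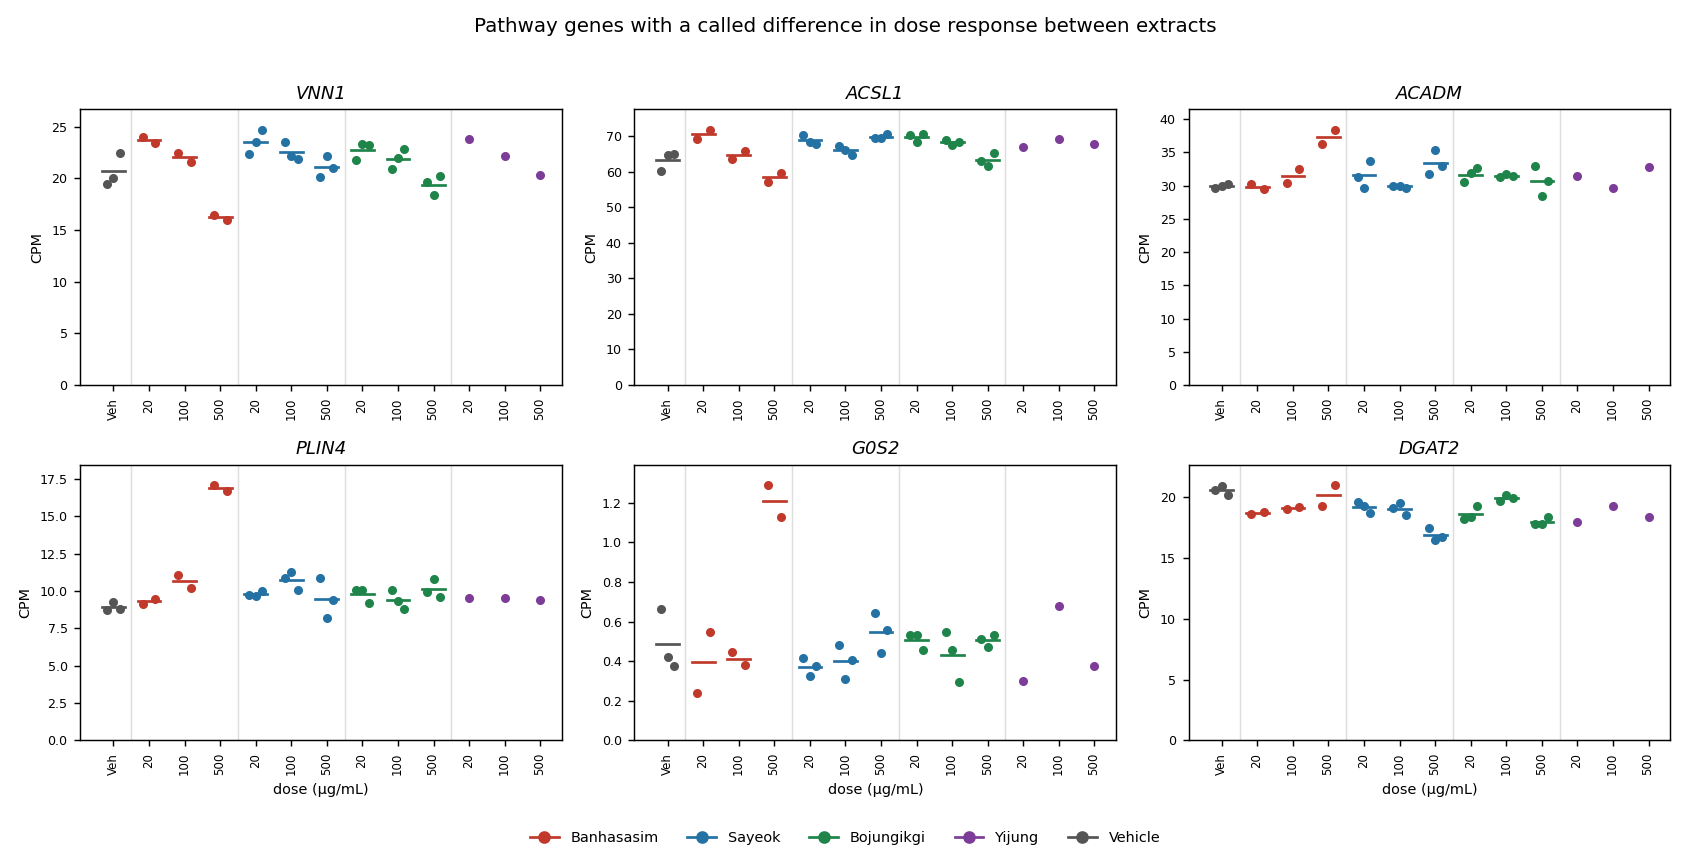
Level in each library (TMM-scaled CPM, linear axis starting at 0, lines for group means) of 6 pathway genes whose change at 500 over 20 µg/mL was called different between Banhasasim and another extract. PLIN4 is at 17.1 and 16.7 CPM at 500 µg/mL of Banhasasim, above all other libraries, and VNN1 is lowest there, at 16.5 and 16.0 CPM.

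Of 19 mitochondrial oxidation genes tested between 500 and 20 µg/mL, 1 was called higher with Banhasasim, where 3.82% of all genes were, and the median log2 fold change of the list was 0.10 with Banhasasim, 0.02 with Sayeok and -0.04 with Bojungikgi. The called gene was ACADM, the medium-chain dehydrogenase, which measured 36.3 and 38.4 CPM at 500 µg/mL, against 30.2 and 29.5 CPM at 20 µg/mL (0.32 ± 0.07, edgeR adjusted p = 0.00202). Of 11 peroxisomal genes, 1 was higher and 1 lower with Banhasasim, where 3.82% of all genes were called higher and 4% lower. ACAA1, a thiolase, rose by 0.28 with Banhasasim (edgeR adjusted p = 0.00638), a call lost without replicate 2 at 500 µg/mL (0.14) or replicate 3 at 20 µg/mL (0.113). CROT, the carnitine octanoyltransferase, fell by 0.26 with Banhasasim (edgeR adjusted p = 0.0239) and by 0.30 with Sayeok (0.00246). The Sayeok call held without any single library, while the Banhasasim call was lost without any 1 of its 4 libraries (0.0807 to 0.163), without the filter (0.106) and with only these groups (0.0806).

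Among 11 genes of fatty acid uptake and activation, ACSL1, a long-chain acyl-CoA synthetase, fell by 0.27 with Banhasasim (edgeR adjusted p = 3.62e-04), to 57.2 and 59.6 CPM at 500 µg/mL, against 69.2 and 71.8 CPM at 20 µg/mL. The transporter SLC27A4 rose by 0.30 (edgeR adjusted p = 0.00916), a call lost without replicate 2 at 500 µg/mL (0.0821) or replicate 3 at 20 µg/mL (0.138). With Sayeok the intracellular carrier FABP1 rose by 0.73 ± 0.14 (edgeR adjusted p = 0.00321), to 4.20, 3.41 and 3.06 CPM at 500 µg/mL, against 2.13, 2.26 and 2.07 CPM at 20 µg/mL. That call held without any single library. Also with Sayeok, ACACB, which makes the malonyl-CoA that inhibits CPT1, fell by 0.44 (edgeR adjusted p = 0.0146), a call lost without replicate 2 at 500 µg/mL (0.117) or at 20 µg/mL (0.0741). The coactivator NCOA1 fell by 0.29 (edgeR adjusted p = 0.0475), a call lost without any single library other than replicate 1 at 20 µg/mL (0.092 to 0.215). LMF1, which matures lipoprotein lipase, fell by 0.39 (edgeR adjusted p = 0.0299), a call lost by DESeq2 (0.114), without the filter (0.218), with only these groups (0.0989) and without Sayeok replicate 1 or 2 at 500 µg/mL (0.0703 and 0.212) or replicate 1 at 20 µg/mL (0.212).

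Against the vehicle the pathway moved both ways. At 500 µg/mL, 14 of the 91 were higher and 5 lower for Banhasasim (20.9% called, against 15.3% of all genes), 17 and 15 for Sayeok (35.2%, against 16.6%) and 20 and 21 for Bojungikgi (45.1%, against 29.7%). Pyruvate dehydrogenase and its regulators (9 tested) had 4, 4 and 5 members higher and 0 lower in that order, where 8.16%, 8.33% and 14.3% of all genes were called higher. PDK1, a sister kinase of PDK4, measured 29.9 and 32.9 CPM with Banhasasim, 32.3, 34.5 and 34.4 CPM with Sayeok and 30.8, 37.0 and 31.5 CPM with Bojungikgi, against 22.5, 25.5 and 26.6 CPM in vehicle libraries. The vehicle lay below all of them, and the log2 fold change was 0.33 ± 0.07 (edgeR adjusted p = 0.00217), 0.44 ± 0.07 (7.58e-05) and 0.41 ± 0.06 (1.05e-04). At 20 µg/mL PDK1 already averaged 29.8, 30.6 and 29.8 CPM in the same order of extracts, against 24.9 CPM in the vehicle. The Banhasasim call was lost without replicate 3 (0.0815) and with only the compared groups (0.0987), and the Bojungikgi call with only the compared groups (0.0603).

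Of the 19 mitochondrial oxidation genes, 2 were higher and 0 lower with Banhasasim at 500 µg/mL, 2 higher and 5 lower with Sayeok, and 0 higher and 7 lower with Bojungikgi. Of all genes 8.16%, 8.33% and 14.3% were called higher and 7.12%, 8.27% and 15.4% lower, in the same order. The list's median log2 fold change was 0.02, -0.02 and -0.09, against -0.02, -0.01 and -0.01 over all genes. At 20 µg/mL 0 of the list were higher and 4 lower with Banhasasim, 1 higher and 5 lower with Sayeok, and 0 higher and 3 lower with Bojungikgi. Of all genes 6.43%, 8.86% and 9.11% were called higher at this dose and 6.23%, 10.1% and 9.2% lower. The difference between extracts in these counts was not tested. CPT2, the inner membrane partner of CPT1A, measured 24.5, 25.2 and 24.6 CPM with Sayeok and 23.8, 23.5 and 25.0 CPM with Bojungikgi at 500 µg/mL, against 28.9, 28.1 and 28.8 CPM in vehicle libraries. It was lower by every library, with log2 fold changes of -0.20 ± 0.05 (edgeR adjusted p = 0.0118) and -0.24 ± 0.05 (0.00194), of which the Sayeok call was lost without replicate 3 (0.0516) and the Bojungikgi call with only the compared groups (0.0699). At 20 µg/mL CPT2 already averaged 24.9 CPM with Sayeok and 26.0 CPM with Bojungikgi, against 28.6 CPM in the vehicle. ECHS1, the short-chain hydratase, averaged 145 ± 2.75 CPM with Sayeok and 136 ± 22.5 CPM with Bojungikgi, against 187 ± 20.0 CPM in vehicle libraries (SD, n = 3 each), and each library of these extracts lay below the vehicle. It differed by -0.36 ± 0.09 (edgeR adjusted p = 0.00614) and -0.46 ± 0.09 (5.77e-04), where vehicle replicate 1 at 210.0 CPM stood above the other vehicle libraries at 174 and 176 CPM. Without that library the Sayeok call was lost (0.0594), and the Bojungikgi call was lost with only the compared groups (0.0808). At 20 µg/mL ECHS1 already averaged 135.5 CPM with Sayeok and 140.7 CPM with Bojungikgi. The acyl-CoA synthetase ACSL4 was higher with each extract at 500 µg/mL, by 0.26, 0.31 and 0.31 (edgeR adjusted p = 0.00374, 3.58e-04 and 2.25e-04). ACSL4 averaged 173.5, 180 and 180.1 CPM at that dose and already 180.5, 184.3 and 178.4 CPM at 20 µg/mL, against 145.1 CPM in the vehicle. Its Banhasasim call was lost without replicate 3 (0.128), and the Banhasasim and Bojungikgi calls with only the compared groups (0.112 and 0.0639).

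Genes whose pattern over the 13 group means was most like that of a member were ranked by Pearson's r on log2 CPM, among 958 genes with a mean of at least 5 CPM and a range of group means of at least 0.5. The groups share a table and a scaling, and 3 of them hold 1 library, so r is a description. For PDK4 the closest were the chemokine CXCL8 (r = 0.920), the efflux transporter ABCG2 (0.904) and TRIM31 (0.894). For CPT1A they were GPAT3 (0.870), GCLC (0.865) and UGT1A10 (0.856), which shares exons with the other UGT1A genes. For PLIN2 they included AKR1C2 (0.933), whose reads can be confused with those of AKR1C1, and ABCG1 (0.919). For ACADVL they included AKAP12 (0.921) and ECM1 (0.872). The levels of the 6 genes named for PDK4 and CPT1A were lowest in the vehicle, and those of AKR1C2 and ABCG1 were highest at 500 µg/mL of Banhasasim.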

How the data were processed

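Expected counts per gene were made by the authors with RSEM 1.3.3, after FastQC 0.11.9, Trim Galore 0.6.5 and STAR 2.7.3a on GRCh38, per the submitters' processing notes. A directional kit was used on 1 µg RNA (integrity above 7), and libraries were read as 100 bp pairs, per the labels' protocols. Neither the annotation release nor the use of strand in counting is given in the sources used here. The deposited expected counts (25.48% of values above 0 not whole) were rounded, by at most 0.5, and 240 columns of the table were not used. Hot water extracts and wortmannin, named in the series text, were not analysed here.

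Symbols were found for 56558 of the 60675 IDs. Coordinates, exon lengths and overlaps came from GENCODE release 29 (GRCh38). Genes were filtered with filterByExpr by group (minimum count 10). The Yijung groups hold 1 library each, so a gene had to reach that level in only 1 library. All 30 libraries, scaled by TMM, entered a robust quasi-likelihood fit (edgeR 4.0.16 under R 4.3.3) in which each group had its own mean (common dispersion 0.00407, residual df 17). Each of 15 comparisons was two-sided, with a threshold of 0.05 on the adjusted p. SEs were obtained as |log2 fold change| over the root of F. The fit was also run on counts simulated from its own fitted means and spread, which do not mimic single outlying libraries. The outcome is not given here, and no conclusion is drawn from it.

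Alternatives were DESeq2 1.42.0 size factors, its Wald test, no filter, only the compared groups, a replicate block and leaving out each library. Replicate pairs were checked and none was a duplicate (chi-square per gene of at least 4.138). The members, the 9 pathway lists and the rule for named genes (all 8 members, from each list and comparison at most 4 called genes, lowest p first, averaging 1 CPM or more in a group, and the 3 genes most like each member called between 500 and 20 µg/mL) were chosen with earlier results of these data known. Some results under the rule are not reported here.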

Additional observations from a re-analysis of the deposited data

Results flagged for a closer look

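The change at 500 over 20 µg/mL differed between extracts for 6 pathway genes given here, by edgeR interaction terms adjusted over all genes, and for none of the 8 genes of the group. Each of these 7 differences sets Banhasasim (code series 14, n = 2 per dose) against an extract of series 15 (n = 3 per dose), so extract and code series cannot be told apart. PLIN4, of lipid droplets, differed by 0.91 between Banhasasim and Sayeok (6.10e-05) and by 0.81 between Banhasasim and Bojungikgi (2.40e-04), and both held under every alternative and without any single library. G0S2, the lipase inhibitor, differed by 1.56 between Banhasasim and Bojungikgi (0.0387), lost without any of 7 single libraries (0.0526 to 0.232) and with only the compared groups (0.101). ACADM differed by 0.37 between Banhasasim and Bojungikgi (0.0191), lost without any of 6 single libraries (0.0505 to 0.116) and with only the compared groups (0.12). ACSL1 differed by -0.29 between Banhasasim and Sayeok (0.00978), lost without Banhasasim 500 µg/mL replicate 2 (0.13), Banhasasim 20 µg/mL replicate 3 (0.113) or the filter (0.122). VNN1 differed by -0.39 between Banhasasim and Sayeok (0.0332), lost without any of 8 single libraries (0.0801 to 0.157). DGAT2 differed by 0.30 between Banhasasim and Sayeok (0.044), lost without any of 7 single libraries (0.0909 to 0.222), with DESeq2's size factors (0.0522), without the filter (0.447) and with only the compared groups (0.178).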

How the results depend on the processing

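Of the 25 member calls between doses or against the vehicle, 12 held under all 5 other settings and 8 without any single library. With only the compared groups in the fit 13 calls were lost, without the filter 2, with the replicate block 1, and with DESeq2's size factors or its Wald test 0. With only the compared groups, the members called numbered 0 for Bojungikgi at 500 against 20 µg/mL and 2, 2 and 1 for Banhasasim, Sayeok and Bojungikgi at 500 µg/mL against the vehicle. They numbered 0 for Banhasasim at 20 µg/mL against the vehicle. Leaving out single libraries gave 0 to 1 for Banhasasim, 1 to 3 for Sayeok and 0 to 1 for Bojungikgi at 500 against 20 µg/mL. Against the vehicle it gave 3 to 6, 1 to 4 and 2 to 4 at 500 µg/mL, and 0 to 2, 1 throughout and 0 to 1 at 20 µg/mL. No called member changed direction under any alternative.

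Of the differences between extracts, none of which passed for a member, these changed sign when a library was left out. PLIN2 (Banhasasim minus Sayeok) was 0.05 without Sayeok 20 replicate 3. ACADVL (Banhasasim minus Sayeok) was 0.02 without Banhasasim 20 replicate 2 and 0.04 without Banhasasim 500 replicate 3. ACADVL (Banhasasim minus Bojungikgi) was -0.04 without Banhasasim 500 replicate 2 and -0.02 without Banhasasim 20 replicate 3. PDK4 (Sayeok minus Bojungikgi) was -0.05 without Sayeok 500 replicate 2. Over all single libraries left out these 4 differences ran between -0.09 and 0.05 (PLIN2), -0.15 and 0.04 (ACADVL, Banhasasim minus Sayeok), -0.04 and 0.15 (ACADVL, Banhasasim minus Bojungikgi) and -0.05 and 0.13 (PDK4). The cause was not tested.

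Same-number libraries did not deviate together, so the numbers were not taken as pairing. Their correlation was -0.105 to 0.195 over 32 pairs and in 0 of 12 comparisons above 0.1 throughout. Deviations were taken from the group mean, so the pairs of a comparison are not separate checks. Between 2 Banhasasim doses both pairs have the same value by construction. The replicate block left the members called at 2, 3 and 1 at 500 against 20 µg/mL and at 2 instead of 3 for Banhasasim at 20 µg/mL against the vehicle.

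Over all genes, calls moved by over 1.5 times with only the compared groups for Bojungikgi at 500 against 20 µg/mL (53, against 331) and at 500 µg/mL against the vehicle (189, against 5579), and for Banhasasim (648, against 2870) and Sayeok (1264, against 3117) there. At 20 µg/mL against the vehicle they were 38, 1537 and 1985, against 2378, 3554 and 3440. For the difference of Banhasasim minus Bojungikgi they were 154, against 386, and for Sayeok minus Bojungikgi 3, against 5. Without the filter they were 606 for Bojungikgi at 500 against 20 µg/mL, 86, 112 and 76 for Banhasasim, Sayeok and Bojungikgi at 100 against 20 µg/mL (16, 0 and 2 with it), and 327, 962 and 182 for the 3 differences between extracts (196, 386 and 5 with it). Leaving out 1 library also moved them: without vehicle replicate 1 they were 1438 for Sayeok and 2826 for Bojungikgi at 500 µg/mL and 991 and 845 at 20 µg/mL against the vehicle. Without 1 Banhasasim library they fell to 636 of 1468 at 500 against 20 µg/mL (500 µg/mL replicate 2), 1470 at 500 µg/mL (replicate 3) and 297 at 20 µg/mL (replicate 3) against the vehicle, 169 for Banhasasim minus Bojungikgi (500 µg/mL replicate 2), 116 for Banhasasim minus Sayeok (20 µg/mL replicate 3) and 6 at 100 against 20 µg/mL (20 µg/mL replicate 3). They were at least 386 of 596 for Sayeok (without 500 µg/mL replicate 1) and 164 for Bojungikgi (without 20 µg/mL replicate 2) at 500 against 20 µg/mL, so the shares of all genes called rest on single libraries too. Depth limits ANGPTL4, and Banhasasim without a library leaves a dose with 1.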
